A study of Mus musculus with 8 samples.

Results

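The genes described here are 46 interferon-stimulated antiviral effectors, a family of genes that cells switch on when type I interferon binds its receptor, measured in mouse cortical microglia 4 h after an injection of interleukin-33 (IL-33) into a brain ventricle. They were chosen by gene symbol from a fixed list, and a gene was kept when its mean normalized count over the 8 mice was 10 or more. All 46 symbols were found among 53801 genes, and 45 were kept. The gene left out, Oas3, is described at the end with Ifi44, which was kept but was too low to test. Microglia are the resident macrophages of the brain. Mice aged 30 days received IL-33 or vehicle into the ventricle of one side, and microglia were taken from the cortex of single mice 4 h later on a 22% Percoll gradient and by FACS before RNA sequencing. Mice 1 and 2 (female) and mice 3 and 4 (male) received IL-33, and mice 5 and 6 (female) and mice 7 and 8 (male) received vehicle. Every mouse of both groups therefore had the same injection and cell isolation, and the vehicle group gives the background of the procedure. Strain, genotype, dose and the markers used for sorting were not given in the sources used here.

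As background, type I interferons bind a receptor made of Ifnar1 and Ifnar2, whose kinases Jak1 and Tyk2 act on Stat2. With Irf9, Stat2 is part of a complex called ISGF3, which binds the interferon-stimulated response element (ISRE) in promoters. The genes it induces act at different steps of viral infection: sensors detect foreign nucleic acid, the Ifit, Oas and Slfn proteins act on RNA and translation, Mx, Ifitm and Rsad2 proteins act on entry, transport or replication, and Isg15 is a ubiquitin-like protein attached to other proteins. Many of these genes can also be induced without interferon, by interferon regulatory factors that bind the same element. IL-33 itself belongs to the interleukin-1 cytokines, whose receptors use the adaptor Myd88.

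The values are read counts per gene divided by a size factor for each mouse, called normalized counts below. Every value was a whole number of reads once multiplied by that factor, within a tolerance of 0.001 reads, and the libraries held 6989640 to 9323677 reads. Microglial markers dominated every mouse: the summed normalized count of 9 marker genes was 92407 to 102970 with IL-33 and 166688 to 190763 with vehicle. Markers of neutrophils summed to 2.03 to 7.94 and 2.75 to 5.89, with Ly6g, S100a8 and S100a9 at 0 in all mice, and markers of T and NK cells to 10.9 to 22.6 and 4.0 to 14.6, with Cd3e, Cd3d and Ncr1 at 0. Monocyte markers summed to 165 to 201 with IL-33 and 87.2 to 104 with vehicle. Within them Vcan had a mean of 164 with IL-33 and 16.9 with vehicle, whereas Ccr2 had 17.2 and 63.4 and Plac8 3.29 and 13.4, and Ly6c2 and Chil3 were near 0. Border macrophage markers summed to 216 to 269 and 637 to 717, mostly Mrc1. The remaining lists follow, with IL-33 first. Dendritic cell markers summed to 3690 to 4510 and 9667 to 11245, and B cell markers to 1411 to 1734 and 2609 to 3391. Astrocyte markers gave 2414 to 2675 and 1566 to 1854, and oligodendrocyte markers 727 to 922 and 739 to 814. Neuron markers gave 157 to 225 and 155 to 273, and endothelial markers 235 to 323 and 344 to 470. The part of these other cells in the values below was not tested, and in bulk RNA fewer cells of a type and less RNA per cell cannot be told apart. Vehicle mouse 6 stood apart from the other vehicle mice in inflammatory genes. It had 449 normalized counts of Il1b (62.1 to 95.2 in mice 5, 7 and 8), 243 of Tnf (49 to 125) and 161 of Cxcl10 (12 to 25.2). IL-33 differences whose call changed without mouse 6 are also given below without it. The contrast between vehicle sexes is not read without mouse 6, because mouse 5 would be the only vehicle female.

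Promoters show what letters the genes share. RefSeq promoter windows (mouse build GRCm38.p6) were matched for 34 of the 46 genes, and the ISRE core, GAAANNGAAA on either strand, lay in the 250 bases before the RefSeq start of 10 of them: Bst2, Ifit1, Ifit3, Isg15, Oas1a, Oas3, Rsad2, Slfn5, Slfn8 and Trim30a. Of all 27025 genes with a window, 936 (3.46%) held it. Because 73.9% of the genes had a window, under the 80% needed, a comparison of both shares is void and the numbers are only a description. Stretches around the first match are shown for 6 genes whose counts are described below, 5′ to 3′ on the strand of the gene, with every match in capitals; matches that overlap run together, and a match on the opposite strand is printed as its reverse complement.
Ifit1: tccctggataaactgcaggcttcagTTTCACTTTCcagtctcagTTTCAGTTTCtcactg
Ifit3: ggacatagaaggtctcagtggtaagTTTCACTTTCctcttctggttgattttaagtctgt
Isg15: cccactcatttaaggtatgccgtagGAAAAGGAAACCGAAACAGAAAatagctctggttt
Rsad2: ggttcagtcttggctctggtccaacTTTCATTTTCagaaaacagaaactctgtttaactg
Slfn5: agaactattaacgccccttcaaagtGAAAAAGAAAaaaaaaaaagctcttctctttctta
Oas1a: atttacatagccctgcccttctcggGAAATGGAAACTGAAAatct
They lie at chr19:34640760-34640819 (plus strand), chr19:34583348-34583407 (plus), chr4:156200862-156200921 (minus), chr12:26456538-26456597 (minus), chr11:82951922-82951981 (plus) and chr5:120907526-120907570 (minus). The Ifit1 stretch holds 2 separate matches and the Isg15 stretch 3 that overlap. Among genes both matched and tested, the core lay in 6 of the 14 that rose with IL-33, in 0 of the 5 that fell and in 3 of the 13 that did neither. This split depends on the window. With 50 bases after the start added, 15 of the 34 windows held the core. The genes gained were Ddx58, which fell, Ifih1 and Ifitm3, which rose, and Eif2ak2 and Trim21, which did neither. The kappaB consensus, the site of NF-kappaB factors, lay in 7 of the 34 windows (Bst2, Epsti1, Ifit2, Ifitm3, Isg20, Oas3 and Oasl1). Its share over all genes with a window was 8.23%. A comparison of these shares is void too, because too few of the listed genes had a window. A match is a run of letters, not a bound site. The Slfn5 stretch precedes a RefSeq start that lies inside the gene as GENCODE M21 annotates it (chr11:82951349-82964840), so it is within that annotated gene, whereas the other stretches lie outside theirs. On the same build, annotated by GENCODE M21, the genes themselves span chr19:34640871-34650009 (Ifit1), chr4:156199424-156200818 (Isg15), chr12:26442746-26456452 (Rsad2), chr11:83065112-83070678 (Slfn2), chr5:114896936-114912234 (Oasl2) and chr14:77904239-78002657 (Epsti1).

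IL-33 raised part of this gene set and lowered a smaller part. Of the 44 genes tested, 22 rose, 5 fell and 17 did not pass the test (limma with treatment and sex as terms, adjusted p under 0.05 over 15110 genes). The genes that rose most were Rsad2, Ifit1, Slfn2, Isg15 and Oasl1, and the genes that fell were Epsti1, Parp12, Herc6, Lgals3bp and Ddx58. IL-33 changed a large share of the transcriptome at this time, which sets the background: 57.7% of all genes tested were called, 29.2% higher and 28.5% lower. Among the antiviral genes 61.4% were called, 50% higher and 11.4% lower, so the total share lay close to the background and the split was uneven. Their median difference was 0.55 on the scale of log2(normalized count + 1), used for every difference below, and 0.02 over all genes. The 4 IL-33 mice lay all above the 4 vehicle mice for 18 of these genes and all below for 4, which is 50% without overlap beside 52.3% of all genes. Without vehicle mouse 6, 27 rose and 5 fell, and all 27 genes called with every mouse were still called.

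**Figure D1:**
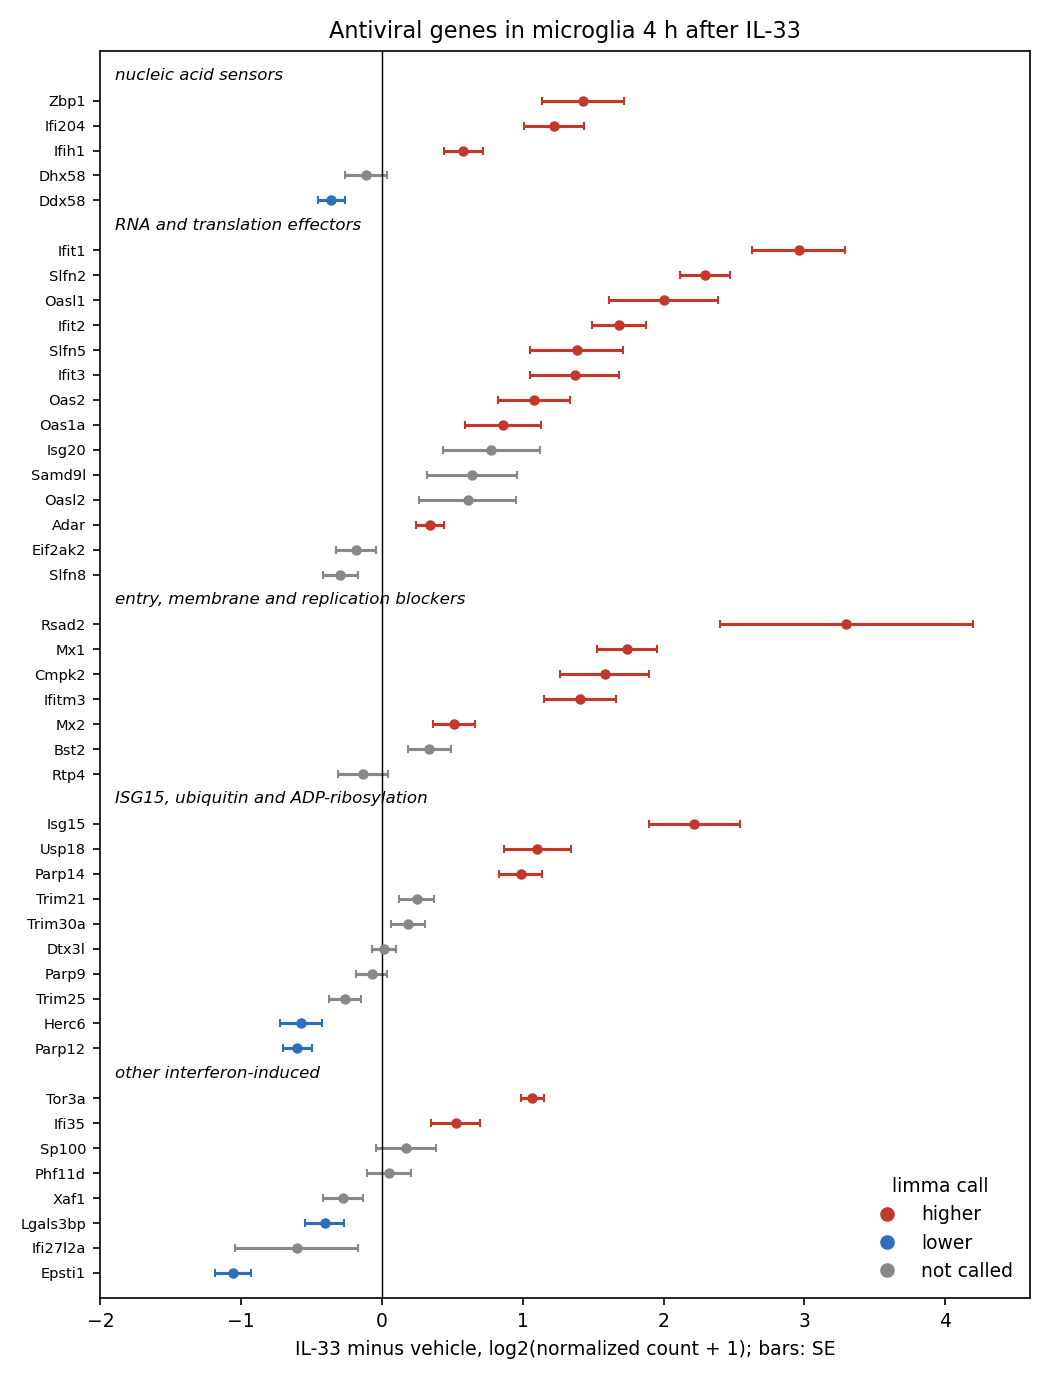
Difference between IL-33 and vehicle mice in log2(normalized count + 1), with its SE, for the 44 genes tested, sorted by role; colours give the limma call. The 5 role groups differ in their split, with 9 of 14 RNA and translation effectors and 5 of 7 entry, membrane and replication blockers called higher, while sensors, ISG15-related and other genes hold both directions.

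RNA and translation effectors formed the largest role group, with 15 genes listed and 14 tested, of which 9 rose and 5 did not pass, at a median difference of 0.97. Ifit1, which binds viral RNA lacking a host cap, had 29.4, 55.6, 11.9 and 13 normalized counts in vehicle mice 5 to 8 and 207, 149, 171 and 210.4 in IL-33 mice 1 to 4. Every IL-33 mouse was above every vehicle mouse, and the lowest values were those of the 2 vehicle males. The mean went from 27.5 ± 20.4 to 184 ± 29.5 (SD, n = 4), a difference of 2.96 ± 0.33 (SE, limma adjusted p = 4.54e-06). Ifit2 and Ifit3, related RNA-binding proteins, are its neighbours on chromosome 19 and also rose. Ifit2 had 115, 119, 50.3 and 65.1 with vehicle and a narrow 261, 257, 270.2 and 274 with IL-33, a difference of 1.68 ± 0.19 (limma adjusted p = 1e-06). Ifit3 had 109, 123, 22.9 and 43 with vehicle and 182, 159.7, 166 and 129 with IL-33, a difference of 1.37 ± 0.32 (limma adjusted p = 0.00297). For Ifit3 the groups came close, with 123 in vehicle mouse 6 and 129 in IL-33 mouse 4, and the gene did not pass without the sex term (adjusted p = 0.0621) or in females alone (0.55, adjusted p = 0.0565).

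The Schlafen genes, which restrain translation and cell growth and lie together on chromosome 11, gave 2 genes that rose and 1 that did not pass. Slfn2, known for keeping mouse T cells and monocytes quiescent, had 178, 170.1, 92.4 and 82.1 normalized counts with vehicle and 562, 635, 661 and 581 with IL-33. It rose by 2.29 ± 0.18 (limma adjusted p = 4.99e-08), with a wide gap between the groups. Slfn5, on the far side of Slfn8, had 215, 292, 97 and 91.1 with vehicle and 326, 436, 465 and 394 with IL-33. Its difference was 1.38 ± 0.33 (limma adjusted p = 0.00885), and the lowest IL-33 mouse stood above vehicle mouse 6. Slfn8, the most abundant of the 3 per kilobase of exon with vehicle (349, against 78.6 for Slfn2 and 27.5 for Slfn5), had 1398, 2037, 1047 and 1229 with vehicle and 1149, 1230.3, 1172 and 974 with IL-33. The groups overlapped and the difference of -0.30 ± 0.13 did not pass (limma adjusted p = 0.0595). It did pass, as lower, without IL-33 mouse 3 (limma adjusted p = 0.015), without vehicle mouse 5 (0.0373) or without vehicle mouse 7 (0.0199), and by both count tests tried. Slfn genes are near-identical in parts, and reads may be split between copies.

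The 2′-5′ oligoadenylate synthetases make the second messenger that activates RNase L, and their relatives Oasl1 and Oasl2 lack that activity or differ in it. Oasl1, known in mice for restraining translation of Irf7, was low with vehicle, at 14.3, 6.54, 10.1 and 3.0 normalized counts, and reached 41.6, 32.7, 28.2 and 30.1 with IL-33. The groups did not overlap, and the difference was 2.0 ± 0.38 (limma adjusted p = 0.000248). Oas2 rose by 1.08 ± 0.26, from 26.8 ± 12.1 to 54.2 ± 13.1 (SD, n = 4, limma adjusted p = 0.00163). Oas1a had 85.8, 117, 22.9 and 33 with vehicle and 118, 100.2, 89.4 and 81.3 with IL-33. Vehicle mouse 6 lay among the IL-33 mice, and both vehicle males far below them. The Oas1a difference was 0.86 ± 0.27 (limma adjusted p = 0.0123), which did not pass without IL-33 mouse 3 (0.68, adjusted p = 0.053) or without vehicle mouse 7 (0.61, adjusted p = 0.0532). Nor did it pass without limma's trend and robust options (adjusted p = 0.0532), without the sex term (0.161) or in females alone (0.12, adjusted p = 0.743). Oasl2, 11.0 kb from Oasl1 on chromosome 5, had 319, 513, 102 and 118 with vehicle, a spread that takes in all IL-33 mice at 373, 336, 297 and 289. Its difference of 0.61 ± 0.34 did not pass (limma adjusted p = 0.177), and it passed at 0.90 without vehicle mouse 6 (adjusted p = 0.00546).

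Of the other 4 RNA effectors described, 1 rose and 3 did not pass. Adar, which converts adenosine to inosine in double-stranded RNA, rose by 0.34 ± 0.10 with no overlap, from 367, 371, 300.2 and 290.3 normalized counts with vehicle to 436, 422, 394 and 419.6 with IL-33 (limma adjusted p = 0.00732). Its exons overlap those of Chrnb2 on the other strand over 1365 bases. Eif2ak2, the kinase PKR that halts translation when it binds double-stranded RNA, had 779.9, 1061, 516 and 579.5 with vehicle and 612, 664, 675 and 544 with IL-33, a difference of -0.18 ± 0.14 that did not pass (limma adjusted p = 0.295). Isg20, a nuclease that degrades RNA, had 35.3, 46.9, 13.7 and 14 with vehicle and 29.4, 59.5, 30.1 and 56.8 with IL-33. It varied inside both groups, as IL-33 mice 2 and 4 lay well above mice 1 and 3. The Isg20 difference of 0.78 ± 0.34 did not pass with all mice (limma adjusted p = 0.0638), but passed without IL-33 mouse 1 (1.12, adjusted p = 0.00807) or vehicle mouse 6 (adjusted p = 0.0202). Samd9l, a restriction factor for poxviruses, had means of 21.9 ± 9.47 and 33.1 ± 10.6 (SD, n = 4) and did not pass (limma adjusted p = 0.0993), except at 0.87 without vehicle mouse 7 (adjusted p = 0.0379).

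Of the 7 genes that block entry, membrane transport or replication, 5 rose and 2 did not pass, at a median difference of 1.41. Rsad2 encodes viperin, which makes a nucleotide that stops viral polymerases. It had 107, 114, 108 and 117 normalized counts in the 4 IL-33 mice, a tight group, and 9.25, 40.3, 0.915 and 20.0 in the vehicle mice, which ran from 1 read in mouse 7 to the value of mouse 6. It rose by 3.30 ± 0.90, the largest difference by limma among the genes tested here (limma adjusted p = 0.0208). By edgeR the log2 difference was 2.73 for Rsad2 and larger, 2.82, for Ifit1. The limma SE of Rsad2 was the widest of the set. Rsad2 no longer passed when IL-33 mouse 3 was dropped (3.15, limma adjusted p = 0.0563), or IL-33 mouse 4 (3.10, limma adjusted p = 0.0565), or vehicle mouse 5 (3.07, limma adjusted p = 0.0693). It also missed the threshold with no filter on low genes (adjusted p = 0.0557) and in males alone (4.16, adjusted p = 0.0952). Cmpk2, a mitochondrial nucleotide kinase whose gene lies 12.8 kb from Rsad2 on chromosome 12, had 11.8, 10.9, 7.32 and 15 with vehicle and 39.6, 41.7, 25.4 and 34.5 with IL-33. It rose by 1.58 ± 0.32 with no overlap (limma adjusted p = 0.000364).

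Mx1, a dynamin-like GTPase that blocks influenza virus in mice carrying an intact gene, had 127, 188, 61.3 and 79.1 normalized counts with vehicle and 409.8, 313, 345 and 333 with IL-33. All IL-33 mice were above all vehicle mice, and the difference was 1.74 ± 0.21 (limma adjusted p = 1e-05). Its neighbour Mx2, annotated as a polymorphic pseudogene, had 116, 148, 95.2 and 93.1 with vehicle and 176, 159.7, 165 and 137 with IL-33. It rose by 0.51 ± 0.15 (limma adjusted p = 0.00794), with vehicle mouse 6 above IL-33 mouse 4. Ifitm3, a membrane protein that keeps virus in endosomes, had 131, 153, 73.2 and 63.1 with vehicle and 197, 288, 242 and 342 with IL-33. Its difference was 1.41 ± 0.25 (limma adjusted p = 0.000498), and per kilobase of exon it was among the most abundant of the set with IL-33, at 394. Bst2, or tetherin, which holds budding virus at the cell surface, had 131, 194, 113 and 122 with vehicle and 179, 198, 148 and 173 with IL-33. The groups overlapped through vehicle mouse 6, and its difference of 0.34 ± 0.15 did not pass (limma adjusted p = 0.0656) but did at 0.47 without that mouse (adjusted p = 0.00873). Rtp4 had means of 192 ± 95.3 with vehicle and 163 ± 34.5 with IL-33 (SD, n = 4) and did not pass (limma adjusted p = 0.529).

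The 10 genes of ISG15 modification, ubiquitin ligation and ADP-ribosylation gave 3 higher, 2 lower and 5 not called, with a median difference of 0.10. Isg15 had 22.7, 38.2, 8.24 and 13 normalized counts with vehicle and 90.3, 74.4, 73.4 and 109 with IL-33. The groups were well apart, and vehicle mouse 6 was the highest of its group. Isg15 rose by 2.22 ± 0.32 (limma adjusted p = 1.55e-05). Usp18, which removes Isg15 from proteins and blocks signalling at Ifnar2, had 61.4, 161, 59.5 and 72.1 with vehicle and 188, 185, 167 and 161 with IL-33. Vehicle mouse 6 lay level with the lowest IL-33 mouse, and the other vehicle mice were far lower. The Usp18 difference was 1.10 ± 0.24 (limma adjusted p = 0.00111). Herc6, the main ligase for Isg15 in mice, moved the other way. It had 417, 609, 331 and 449 with vehicle and 258, 302, 329 and 297 with IL-33, so that vehicle mouse 7 and IL-33 mouse 3 nearly met, and it fell by 0.58 ± 0.15 (limma adjusted p = 0.004).

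Of the 3 ADP-ribosyltransferases of the list, 1 rose, 1 fell and 1 did not pass. Parp14, which modifies proteins with ADP-ribose and is active in macrophages, had 1453, 1573, 942 and 957 normalized counts with vehicle and 2338, 2141, 2773 and 2282 with IL-33. It rose by 0.99 ± 0.15 with no overlap (limma adjusted p = 0.000212). Parp12, which blocks translation of viral RNA, had 685, 614, 517 and 553 with vehicle and 405, 352, 383 and 412 with IL-33. It fell by 0.60 ± 0.10 with no overlap (limma adjusted p = 7.89e-05). Parp9 and its partner ligase Dtx3l, neighbours of Parp14 on chromosome 16, had close means in both groups. Dtx3l had means of 578 ± 51.7 and 582 ± 11.8 (SD, n = 4), and Parp9 had 399.7 ± 53.9 and 379 ± 45.8; neither passed (limma adjusted p = 0.894 and 0.581). The exons of both genes overlap on opposite strands over 458 bases. Among the tripartite motif ligases, Trim21, a receptor for antibody inside cells, had means of 253 ± 32.1 and 299 ± 28.2. Trim25, which activates the sensor RIG-I, had 772 ± 118 and 642 ± 76, and Trim30a 1044 ± 286 and 1154 ± 22.1 (SD, n = 4). None of these ligases passed by limma with all mice (limma adjusted p = 0.0998, 0.0565 and 0.216 in that order). By edgeR with all mice, Trim25 did pass as lower (edgeR adjusted p = 0.0421). Trim21 (adjusted p = 0.0435) and Trim30a (0.00366) passed as higher without vehicle mouse 6, and Trim25 as lower without IL-33 mouse 3 (0.0207) or vehicle mouse 7 (0.041).

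Of the 5 nucleic acid sensors, 3 rose and 1 fell. Zbp1, which senses left-handed double-stranded nucleic acid and can start necroptosis, had 59.7, 37.1, 25.6 and 14 normalized counts with vehicle and 91.3, 73.4, 76.2 and 90.2 with IL-33, a difference of 1.43 ± 0.29 without overlap (limma adjusted p = 0.00044). Ifi204, a DNA sensor of a mouse gene family with near-identical copies, had 110.2, 148, 52.2 and 96.1 with vehicle and 241, 207, 209.9 and 238 with IL-33, a difference of 1.22 ± 0.21 (limma adjusted p = 0.000167). Ifih1 and Ddx58, which encode the RNA sensors MDA5 and RIG-I, went in opposite directions. Ifih1 had 358, 585, 367 and 333 with vehicle and 619.7, 569, 647 and 559 with IL-33 and rose by 0.58 ± 0.14 (limma adjusted p = 0.00237). Vehicle mouse 6 reached the range of the IL-33 mice. Ddx58 had 503, 568, 444 and 464 with vehicle and 398, 403, 345 and 393 with IL-33 and fell by 0.36 ± 0.10 with no overlap (limma adjusted p = 0.00392). Dhx58, or LGP2, a regulator of those RNA sensors, had means of 129 ± 33.3 and 117 ± 16.3 (SD, n = 4) and did not pass (limma adjusted p = 0.538).

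The 9 remaining genes, 8 of them tested, gave 2 higher and 2 lower. Tor3a, an ATPase of the endoplasmic reticulum, had the smallest adjusted p of the set. It had 497, 499, 409 and 445 normalized counts with vehicle and 1005, 1037, 881 and 956 with IL-33, both groups narrow and far apart, a difference of 1.07 ± 0.08 (limma adjusted p = 6.57e-09). Epsti1, which in mice shapes macrophage polarization, had 319, 291, 221 and 276 with vehicle and 134, 148, 125 and 119 with IL-33. It fell by 1.06 ± 0.13, the largest fall of the set (limma adjusted p = 1.47e-06). Lgals3bp, a secreted glycoprotein and the most abundant of the genes per kilobase of exon (984 with vehicle and 720.5 with IL-33), had 2809, 3996, 2511 and 1889 with vehicle and 2486, 1969, 1882 and 1868 with IL-33. The groups overlapped through vehicle mouse 8, which lay near the 3 lowest IL-33 mice. The Lgals3bp fall of 0.41 ± 0.14 passed with all mice (limma adjusted p = 0.0246) but not without IL-33 mouse 2 (-0.30, adjusted p = 0.0635) or vehicle mouse 7 (-0.36, adjusted p = 0.0784). It did not pass either with no filter on low genes (adjusted p = 0.137), without limma's trend and robust options (0.0829), without the sex term (0.165) or in males alone (-0.22, adjusted p = 0.128).

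Ifi35, a partner of other interferon-induced proteins that acts on RIG-I signalling, had 66.5, 89.4, 85.1 and 98.1 normalized counts with vehicle and 119.7, 141, 111 and 115 with IL-33. It rose by 0.52 ± 0.17 (limma adjusted p = 0.0151), but did not pass when IL-33 mouse 2 (0.43, adjusted p = 0.0691) or vehicle mouse 5 (0.39, adjusted p = 0.0635) was dropped. Sp100, a component of nuclear bodies that silences incoming viral DNA, had 338, 413, 146 and 214 with vehicle and 285, 292, 320.1 and 265 with IL-33. The IL-33 mice fell in the gap between the 2 vehicle females and the 2 vehicle males, and the difference of 0.17 ± 0.21 did not pass (limma adjusted p = 0.519). Xaf1, which promotes cell death, had means of 246 ± 75.2 and 197 ± 23.3 (SD, n = 4) and did not pass with all mice (limma adjusted p = 0.109). Xaf1 passed as lower without IL-33 mouse 4 (-0.38, limma adjusted p = 0.0433) and in females alone (-0.54, limma adjusted p = 0.0331). Phf11d, of a family of close copies, had 168 ± 43.3 and 169 ± 7.10 and did not pass (limma adjusted p = 0.82). Ifi27l2a, strongly induced by interferon in many mouse tissues, was low in both groups, at 12.6, 18.5, 15.6 and 16 with vehicle and 24.3, 4.96, 6.59 and 11.1 with IL-33. Its difference of -0.61 ± 0.44 did not pass (limma adjusted p = 0.252) but did at -1.07 without IL-33 mouse 1, which was the highest (adjusted p = 0.0433).

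Genes that rose had a lower median vehicle level than the others, which the filter on level can itself produce. The median vehicle mean was 88.0 normalized counts for the 22 that rose (8.48 to 1231), 495 for the 5 that fell (277 to 2801) and 253 for the 17 not called (15.7 to 1428). The ranges overlap, the vehicle values also enter the calls, and these means are not corrected for gene length. A gene low with vehicle could also enter the test through its IL-33 mice, as Oasl1 did (8.48 with vehicle and 33.2 with IL-33). A gene equally low that did not rise was left out, so the medians are only a description. Per kilobase of exon, the vehicle levels ran from 2.70 for Cmpk2 to 984 for Lgals3bp among the genes tested. Neighbours rose together at Ifit2, Ifit3 and Ifit1 and at Rsad2 and Cmpk2, whereas Parp14 rose by 0.99 near Dtx3l at 0.02, and Slfn2 rose by 2.29 near Slfn8 at -0.30. In the authors' deposited table, which compares IL-33 with vehicle in 7029 genes (50.1% of them higher), 23 of the genes described here appear. Of these 23, 18 are higher and 5 lower, all with the direction found here and all called here. That comparison uses the same 8 mice and lists only adjusted p under 0.01, so the match is not an independent test.

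The vehicle mice differed from each other more than the IL-33 mice did. The median SD between mice of a group, in log2 units, was 0.44 among vehicle mice and 0.16 among IL-33 mice for the 44 antiviral genes, and 0.23 and 0.20 over all genes tested. The SD was larger among vehicle mice for 43 of the 44, and for 55.6% of all genes. The mean of the 44 log2 values was 7.87, 7.85, 7.73 and 7.79 in IL-33 mice 1 to 4. In vehicle mice 5 to 8 it was 7.35, 7.67, 6.67 and 6.84, so the females came close to the IL-33 mice and the males lay well below. Mouse 6 was the highest vehicle mouse for 32 genes, mouse 5 for 9 and mouse 8 for 3, while mouse 6 was highest for 31.3% of all genes. One of the vehicle males was the lowest for 42 of the 44, against 46.4% of all genes.

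**Figure D2:**
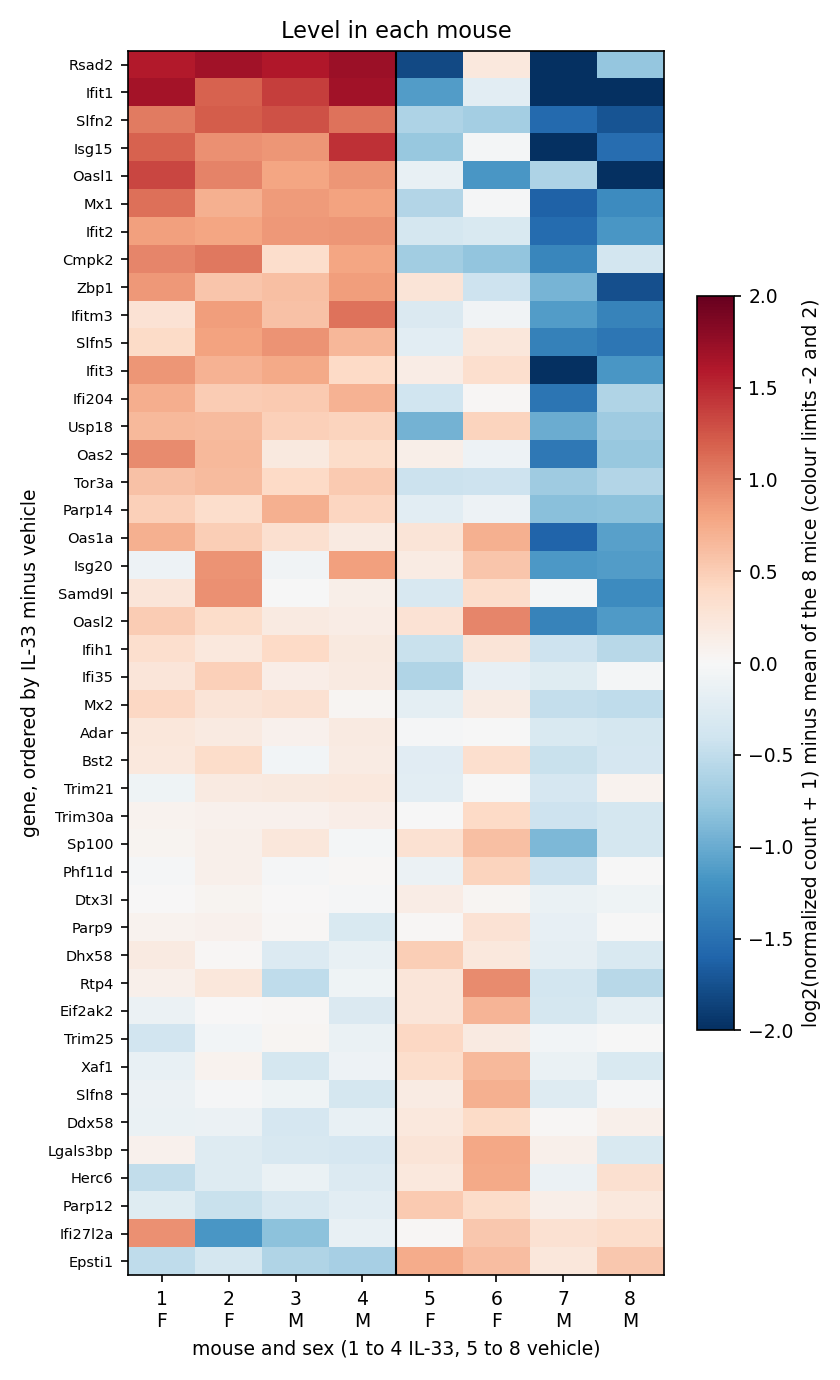
Level of each of the 44 genes tested in each mouse, as log2(normalized count + 1) minus the mean over the 8 mice, with genes ordered by the IL-33 difference. IL-33 mice 1 to 4 resemble each other, whereas vehicle mice 5 and 6 (females) are paler or redder than vehicle mice 7 and 8 (males) over most rows; colours stop at -2 and 2, so more extreme values share the end colour.

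Among vehicle mice, 10 of these transcripts were higher in the females than in the males. Of the 44 genes, 10 were called higher in vehicle females and 0 lower, or 22.7%, against 0.172% of all genes called higher (limma on the 4 cells of treatment and sex, adjusted p under 0.05). They were Oasl2, Ifit3, Oas1a, Ifit1, Slfn5, Mx1, Sp100, Ifit2, Slfn2 and Parp14. Both females lay above both males for 33 of the 44 (75.0%), beside 18.7% of all genes, and below them for 0. An unadjusted p under 0.05 was found for 26 of the 44 and 8.28% of all genes, and edgeR called 9 and DESeq2 14 of the 44 higher. The difference was above 0 for 42 of the 44, with a median of 0.64, whereas the median over all genes was -6.0e-04. This contrast was taken up because earlier results of the same data showed it, so its size is a description of these 4 mice, not an independent test.

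Oasl2 showed the widest gap, with 319 and 513 normalized counts in vehicle females 5 and 6 and 102 and 118 in vehicle males 7 and 8. The difference was 1.87 ± 0.20 (limma adjusted p = 7.1e-05). In the IL-33 mice, Oasl2 was 373 and 336 in females and 297 and 289 in males, a far smaller gap. Ifit3 had 109 and 123 in vehicle females and 22.9 and 43 in vehicle males, a difference of 1.85 ± 0.28 (limma adjusted p = 0.0047). Oas1a had 85.8 and 117 and 22.9 and 33, a difference of 1.83 ± 0.28 (limma adjusted p = 0.00513). The vehicle females lay near the IL-33 mice for both genes, and the vehicle males far below them. Sp100 had 338 and 413 in vehicle females and 146 and 214 in vehicle males, a difference of 1.07 ± 0.19 (limma adjusted p = 0.0193). For Parp14 the difference was 0.67 ± 0.11 (limma adjusted p = 0.0119), and Slfn5 gave 1.40 ± 0.19 (limma adjusted p = 0.00148). The remaining genes, Ifit1, Mx1, Ifit2 and Slfn2, differed by 0.99 to 1.63 (limma adjusted p = 0.00746 to 0.0398).

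**Figure D3:**
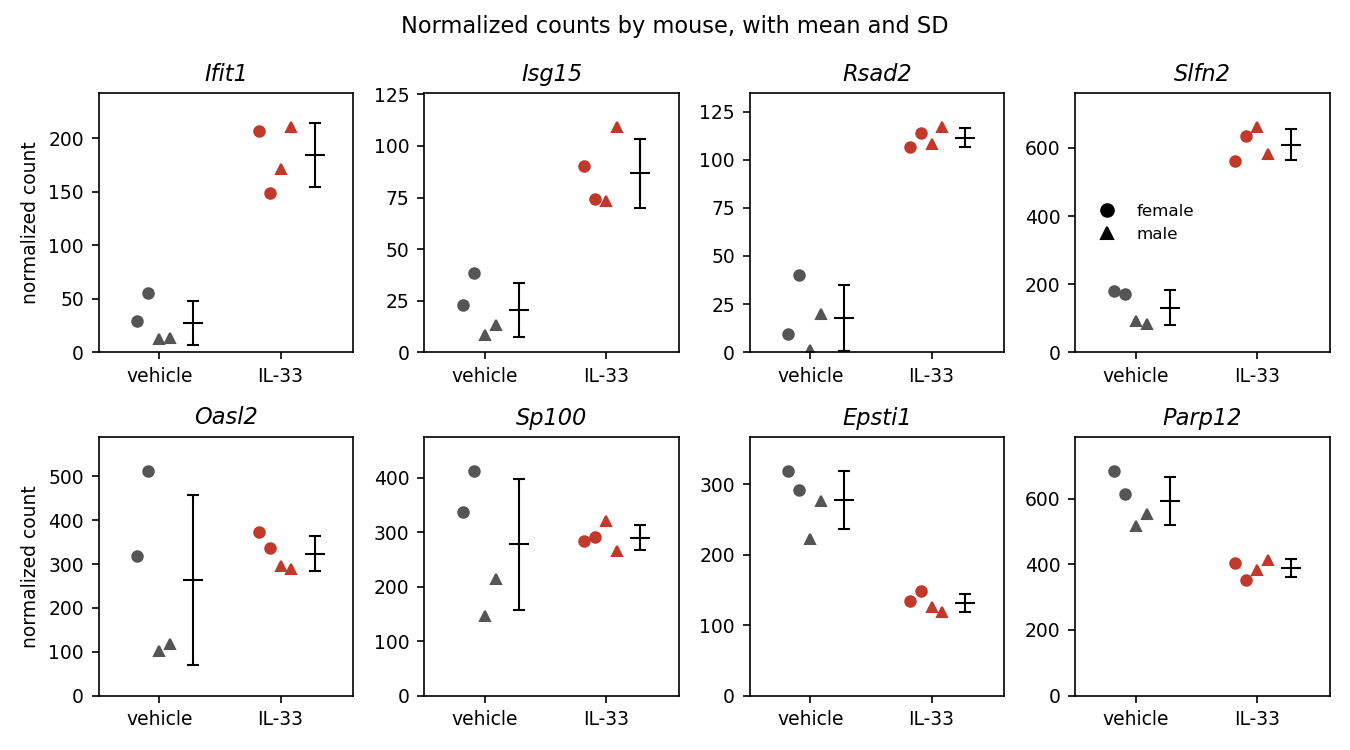
Normalized counts of 8 genes in each mouse (circles female, triangles male), with the mean and SD of each group of 4 at the right. For Oasl2 and Sp100 the IL-33 mice fall between or beside the split vehicle group, for Ifit1, Isg15, Rsad2 and Slfn2 all IL-33 mice lie above it, and for Epsti1 and Parp12 all lie below it.

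With 2 mice of each sex in a group, a sex difference and a difference between single mice cannot be told apart, and the calls changed with the mice included. Without any one IL-33 mouse, 7 of the 10 remained called. Leaving out a vehicle mouse leaves a lone vehicle mouse of that sex. The number of calls then varied widely, among the antiviral genes and over all genes alike, so those calls are not interpreted. No call was left when limma was run without the trend and robust options. Inflammatory genes also differed between the vehicle mice. Il1b was 95.1 normalized counts in female 5 and 449 in female 6, against 95.2 and 62.1 in males 7 and 8. Both females were above both males for Tnf (125 and 243, against 82.4 and 49) and for Cxcl10 (25.2 and 161, against 15.6 and 12). The part of these inflammatory genes in the difference between vehicle females and males was not tested. Over all genes, 34 were called between the vehicle sexes, 26 higher in females and 8 lower, and 8 of the 34 lie on the X or Y chromosome. Of the 24 autosomal genes higher in females, 10 are the antiviral genes above; Nlrc5, Rnf213, Helz2, Ifitm7 and H2-Q7 are others, picked after their values were seen.

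Among IL-33 mice no gene of the set passed the test between the sexes. Of the 44 genes, 0 were called between IL-33 females and males by limma, edgeR or DESeq2, and 0 had an unadjusted limma p under 0.05, beside 14 genes (0.0927%) called and 982 (6.50%) with an unadjusted p under 0.05 over all genes. The median difference was 0.08. Both IL-33 females lay above both IL-33 males for 17 of the 44 (38.6%), beside 21.8% of all genes.

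**Figure D4:**
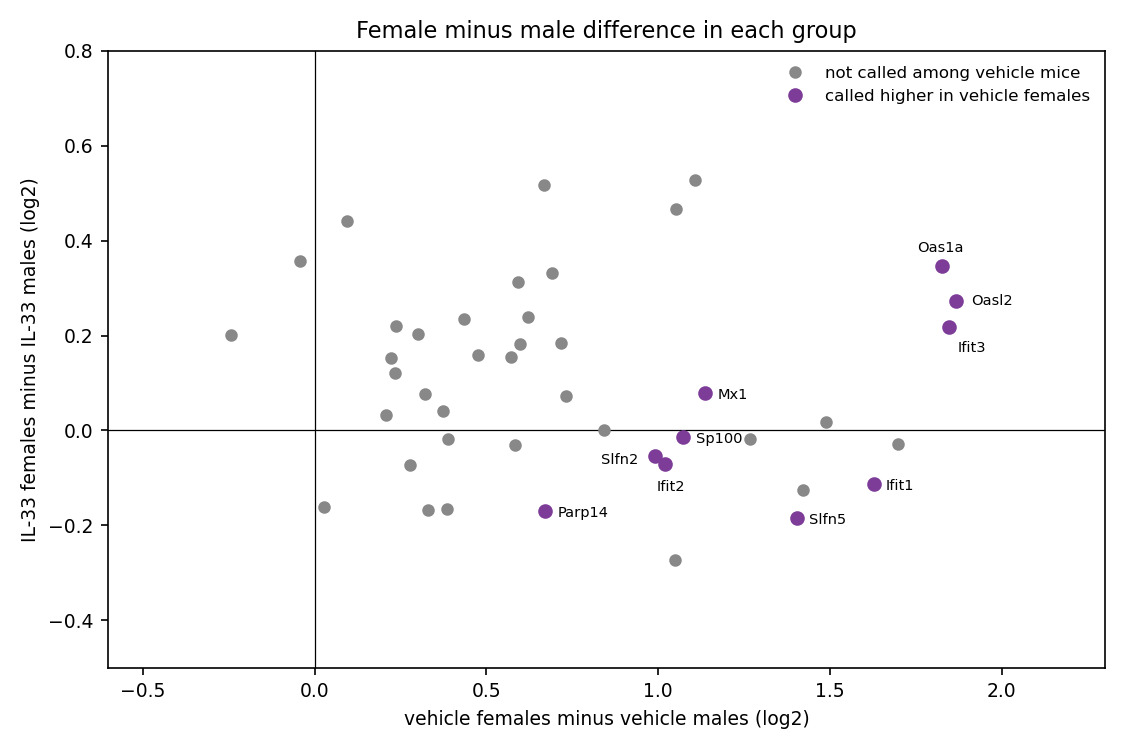
Female minus male difference in log2(normalized count + 1) for the 44 genes tested, among vehicle mice (horizontal) and among IL-33 mice (vertical), each from 2 mice of each sex. Vehicle differences reach 1.87 and 42 of 44 lie right of 0, while the IL-33 differences stay between -0.27 and 0.53; the axes have different scales.

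The signed IL-33 difference was lower in females than in males for most of the set, though the test of that gap made no call among them. For the genes that fell this means a larger fall in females, as for Herc6 (-0.85 in females and -0.30 in males) and Parp12 (-0.78 and -0.43). The female effect minus the male effect was below 0 for 41 of the 44, with a median of -0.52, against 0.02 over all genes. By limma, 0 of the 44 passed, beside 1 of all genes (0.00662%), while 18 of the 44 (40.9%) had an unadjusted p under 0.05 against 8.31% of all genes. Slfn5 had the smallest unadjusted p, with an IL-33 difference of 0.59 in females and 2.18 in males and an interaction of -1.59 ± 0.27 (limma adjusted p = 0.0694). Oasl2 went from 102 and 118 to 297 and 289 in males but from 319 and 513 to 373 and 336 in females, an interaction of -1.59 ± 0.28 (limma adjusted p = 0.0694). Ifit1 rose in both sexes, by 2.09 in females and 3.83 in males (interaction limma adjusted p = 0.251). Tor3a and Epsti1 moved by similar amounts, Tor3a by 1.03 and 1.10 and Epsti1 by -1.11 and -1.01. The count tests called 2 (edgeR) and 4 (DESeq2) of the 44, and their counts over all genes stand below, where the dependence on processing is given. Leaving out vehicle mouse 5, which makes mouse 6 the only vehicle female, also changed the calls. The vehicle mice of the contrast above are also those of this one.

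Upstream of these genes, transcripts of interferons were nearly absent. The 21 ligand genes listed (type I, Ifng, and the lambda interferons) held 12 reads in all 4 IL-33 mice together and 12 in the 4 vehicle mice, and 16 of the 21 had 0 reads everywhere. Ifnb1, the interferon most often made first, had 0 reads with IL-33 and 1 with vehicle. A count of 0 still allows up to 3 reads in a library, copies of interferon alpha are near-identical, and a source outside the sorted cells or at another time was not measured. The receptor genes were well expressed. Ifnar1 had 1083, 1084, 1227 and 1131 normalized counts with vehicle and 2501, 2304, 2370.3 and 2283 with IL-33, a difference of 1.06 ± 0.08 (limma adjusted p = 1.84e-09). Ifnar2 rose by 0.79 ± 0.12 (limma adjusted p = 4.6e-05), and of the interferon gamma receptor chains Ifngr2 rose by 0.98 and Ifngr1 fell by 0.82. Il10rb, shared with the lambda receptor, did not pass (0.17).

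Downstream of the receptor, Jak1, Tyk2 and Stat2 rose, by 0.57, 0.82 and 0.49. Irf9, which many interferon responses raise, differed by 0.16 ± 0.09 and did not pass (limma adjusted p = 0.129). Of 6 interferon regulatory factors, 3 rose and 3 fell. Irf7, the amplifier of type I interferon production, had 84.1, 49.1, 30.2 and 24 with vehicle and 158, 97.2, 147 and 131 with IL-33, a difference of 1.63 ± 0.29 (limma adjusted p = 0.0002). Irf3 and Irf1 rose by 0.44 and 0.34. Irf2, a repressor at the same promoter element, fell by 1.12, Irf5 by 0.48 and Irf8, which microglia need for their identity, by 0.20.

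Genes that lead to interferon induction were mixed, with 7 of 14 adaptors, kinases and receptors higher and 3 lower. Ikbke, a kinase that phosphorylates Irf3 and Irf7, had 1.68, 40.3, 4.58 and 4.0 normalized counts with vehicle and 1842, 1600.3, 1673 and 1476 with IL-33, a difference of 7.78 ± 0.88 (limma adjusted p = 0.000723). Vehicle mouse 6 was its highest vehicle mouse, yet far below every IL-33 mouse. Ticam1 (the adaptor TRIF) rose by 1.73 and Traf3 by 1.51, whereas the RNA receptor Tlr7 fell by 1.93. Of 9 negative regulators of interferon signalling tested, 7 rose and 1 fell. Socs3, an inhibitor of JAK kinases, rose by 3.72 ± 0.29, Nlrc5 by 1.99 ± 0.23 and the phosphatase gene Ptpn6 by 1.08 ± 0.08 (limma adjusted p = 4.62e-05, 6.53e-06 and 2.03e-09 in that order). The background shares of 29.2% higher and 28.5% lower apply to these counts too.

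The 2 genes without a test were low throughout. Oas3 had 11.8, 6.54, 0.915 and 1.0 normalized counts with vehicle and 12.2, 10.9, 4.71 and 8.90 with IL-33, and its mean over the 8 mice, 7.12, fell under the minimum of 10. Ifi44, just inside with a mean of 10.4, had 9.25, 22.9, 0.915 and 6.01 with vehicle and 9.13, 18.9, 9.41 and 6.68 with IL-33. In both genes, vehicle male 7 was the lowest mouse, male 8 the next lowest, and the groups overlapped. The lowest kept genes with a test were Ifi27l2a and Oasl1, given above.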

How the data were processed

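RNA of sorted cortical microglia from 8 mice, 4 per treatment and 2 of each sex in each group, was amplified and sequenced by the authors. The submitters' processing notes name the aligner STAR 2.6.0, the read counter HTSeq 0.9.0, FastQC, the package DESeq2 1.24.0 and the build mm10 (GRCm38), but neither a strand setting nor an annotation. The authors deposited normalized counts (a signal of reads divided by a size factor) for 53801 genes, and a table of log2 fold changes, test scores and p-values from the deposited comparison, which lists only adjusted p under 0.01 and was used only to count genes. Every value gave a whole number of reads (tolerance 0.001). No column of per-sample values was left unmapped.

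The 44 genes were taken from a fit on the 15110 genes that reached 10 normalized counts in 4 or more mice: limma 3.58.1 (trend, robust; R 4.3.3) on log2(normalized count + 1) with treatment and sex, and a model of 4 treatment-by-sex means for the sex contrasts, with Benjamini-Hochberg adjustment. Only the treatment comparison was tried on simulated counts, with few changed genes, a common setting for the spread of all genes and no sex difference. The sex contrasts were not tried in that way. Alternatives were pseudocounts of 0.5 and 5, other filters, TMM factors, edgeR 4.0.16 and DESeq2 1.42.0 on recovered reads (8667 and 8393 of all genes called between treatments, 8716 by limma), no sex term, each sex alone and each mouse left out. Libraries held 6989640 to 9323677 reads; mice of a group differed beyond counting noise (chi-square per gene 4.22 to 21.4 over 12 pairs). Gene lengths and overlaps come from GENCODE M21, in which 53706 of the identifiers were found and all 46 symbols matched, and promoters and their sequences from RefSeq. Promoter entries were not found for Dhx58, Tor3a, Usp18, Parp9, Zbp1, Rtp4, Mx1, Mx2, Parp14, Ifi204, Ifi27l2a and Oas2. Every gene of the list could be named; of other lists, the receptors, signalling genes and regulatory factors, and up to 4 called genes with the largest change. The genes, lists and contrasts were chosen with earlier results of these data known. Each mouse is its own animal per the labels; nothing more is said of batches. A result for 1 gene of the signalling list is not reported here.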

Additional observations from a re-analysis of the deposited data

Results flagged for a closer look

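Among 88 groups of 4 mice (44 genes in each treatment), 3 held a mouse far from the other mice of its group, and chance alone marks about 1 group in 20. Parp9 was 312 normalized counts in IL-33 mouse 4, against 391.6 to 409 in the other IL-33 mice. Trim21 was 257 in IL-33 mouse 1, against 309 to 316 in the others. Ddx58 was 345 in IL-33 mouse 3, against 393 to 403 in the others. All 3 mice were the lowest of their group, and the 3 values come from 3 different mice.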

How the results depend on the processing

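Of the 27 called genes, 14 kept the call under every alternative and 23 without any one mouse; the 4 that lost it are named above. In females alone, Usp18, Adar, Ifit3, Oas1a, Oas2, Mx2, Ifih1 and Zbp1 lost it, and in males alone Herc6, Rsad2, Ddx58, Ifi35 and Lgals3bp. The further losses, of Ifit3, Oas1a, Rsad2 and Lgals3bp under other settings, stand beside those genes. Some genes not called with all mice passed in a single sex. Trim25, Eif2ak2, Slfn8 and Xaf1 passed as lower in females alone, and Trim30a, Isg20, Oasl2 and Sp100 as higher in males alone. Over 836 gene and alternative pairs, 764 kept direction and side of the threshold, 29 lost the call, 28 gained it and 15 changed sign, none of them called. Those were Dtx3l (-0.0023 by edgeR, -0.0077 without IL-33 mouse 3, -0.0095 without vehicle mouse 7, -0.072 in females), Phf11d (-0.035 without vehicle mouse 5, -0.066 without 7, -0.12 in females), Sp100 (-0.048 without vehicle mouse 7, -0.37 in females), Rtp4 (0.061 without vehicle mouse 6, 0.16 in males), Trim30a (-0.12) and Oasl2 (-0.19) in females, and Eif2ak2 (0.15) and Dhx58 (0.026) in males. With 1 mouse left out these ran from -0.010 to 0.053 for Dtx3l, -0.066 to 0.19 for Phf11d, -0.048 to 0.34 for Sp100 and -0.28 to 0.061 for Rtp4. Females alone gave 14 genes higher and 9 lower, males alone 24 and 2. Over all 15110 genes tested, females alone gave 3221 higher and 3115 lower, and males alone 3761 and 3781. TMM factors moved the median of all genes by -0.006. Between vehicle sexes, 10 of the set and 34 of all genes were called; this became 0 and 10 without limma's trend and robust options, 60 of all genes with no filter, and 3 to 21 and 17 to 598 with 1 mouse left out. Between IL-33 sexes, 14 of all genes became 30 with no filter, 6 without those options, 24 by DESeq2 and 8 to 31 with 1 mouse left out. For the interaction, 0 of the set and 1 of all genes became 3 and 29 with no filter, 2 and 4 by edgeR, 4 and 29 by DESeq2, 0 of all genes without those options, and 0 to 14 and 0 to 371 with 1 mouse left out. The cause was not tested. The share of promoters with the ISRE core was 44.1% with 50 bases after the start and 20.6% where C follows. No paired analysis was possible because the groups share no mouse number. With 2 mice per sex and group, sex contrasts are limited by the number of mice; low genes such as Oasl1, Rsad2 and Ifi27l2a rest on few reads.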

Other observations

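Genes of other interferon-responsive families, not part of the antiviral set, are given for comparison. Of 15 guanylate-binding proteins and immunity-related GTPases tested, which attack vacuoles that hold microbes, 8 rose and 4 fell, beside 29.2% and 28.5% of all genes tested. Gbp2 went from 43.7 ± 5.79 normalized counts with vehicle to 1398 ± 51.1 with IL-33 (SD, n = 4), a difference of 4.98 in log2, and Gbp5 differed by 4.13 and Gbp6 by 3.59. Iigp1 rose by 2.72. The members that fell, named for that after their values were seen, were Gbp8 (-1.86), Irgm2 (-1.22), Gbp9 (-0.66) and Gbp7 (-0.32). All 7 interferon-inducible chemokines listed rose, Cxcl10 by 7.34, Ccl5 by 7.27, Ccl7 by 6.68 and Cxcl9 by 4.96 in log2. Every chemokine was higher in each IL-33 mouse than in any vehicle mouse. Of all genes tested, 29.2% were called higher, and 52.3% had all IL-33 mice above or all below the vehicle mice.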
